A study of Drosophila melanogaster with 2 samples.

Results

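The genes described are the 5 GATA factors pnr, srp, grn, GATAd and GATAe of the fly and their cofactor gene ush. They are 6 of the 13968 protein-coding genes on the 7 chromosome arms. Each peak whose summit lay in the span of one of the genes, extended by 5000 bp on either side, was taken for that gene. This gave 246 of the 142438 peaks that the authors ranked from both libraries. The genes were chosen by name after ush had stood out for its number of listed peaks, so its counts were selected on these values and are given as a description, with no test.

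Lim3 is a neuronal transcription factor with LIM domains and a homeodomain, known for its part in motor neuron identity. The peaks are regions ranked from chromatin precipitated through a Lim3-eGFP fusion, and a ranked peak alone does not show that Lim3 was bound there. They come from 1 group, whole embryos of Drosophila melanogaster, 8 to 24 h old, carrying a Lim3-eGFP fusion, with 2 biological replicates. Chromatin was sheared by sonication and precipitated with an antibody against GFP. The labels name no treatment, no control library was analysed here, and whole embryos do not show which cells a peak came from.

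GATA factors are zinc finger proteins that bind the letters GATA, most often with A or T before them and A or G after them. Ush, a zinc finger protein of the Friend of GATA family, does not replace them on DNA but binds to a zinc finger of Pnr or Srp and modulates what these factors do at their targets. Pnr patterns the dorsal epidermis, the sensory bristles and the heart, Srp specifies blood cells, fat body and endoderm, GATAe acts in the midgut, and Grn acts in the specification and axon guidance of motor neurons.

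The summit windows that carry the results are shown first, each as 200 bases of the plus strand of release 6 of the fly genome (dm6) around the summit. Capitals mark the 4 GATA words, which are GATA with A or T before it and A or G after it. They also mark the word TAATTA, which homeodomain proteins bind, and the word GAGAG of GAGA factor, each on either strand. A GATA word can overlap another, and GAGAG can overlap itself. The windows are the strongest peak at ush, 3 listed peaks in introns of ush, named by their distance from its first start, and the listed peak in the intron of grn. The last are peaks at GATAe and at the start of pnr, with summits from the ranking of both libraries. Of the thresholded lists used here, these overlap that of replicate 2 alone.
ush strongest peak, chr2L:480999-481198: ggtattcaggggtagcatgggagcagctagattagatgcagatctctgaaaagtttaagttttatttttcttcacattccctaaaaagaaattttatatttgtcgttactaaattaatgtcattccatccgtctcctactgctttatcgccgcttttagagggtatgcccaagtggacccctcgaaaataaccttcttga
ush intron 36.0 kb, chr2L:512128-512327: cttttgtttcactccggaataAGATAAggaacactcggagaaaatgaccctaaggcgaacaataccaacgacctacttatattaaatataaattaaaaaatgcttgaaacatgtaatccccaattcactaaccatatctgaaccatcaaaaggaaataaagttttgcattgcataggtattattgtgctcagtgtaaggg
ush intron 44.6 kb, chr2L:520757-520956: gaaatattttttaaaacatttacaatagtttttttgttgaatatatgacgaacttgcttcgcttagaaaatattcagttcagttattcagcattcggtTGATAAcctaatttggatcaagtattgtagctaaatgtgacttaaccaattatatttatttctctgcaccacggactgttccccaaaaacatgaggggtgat
ush intron 46.1 kb, chr2L:522214-522413: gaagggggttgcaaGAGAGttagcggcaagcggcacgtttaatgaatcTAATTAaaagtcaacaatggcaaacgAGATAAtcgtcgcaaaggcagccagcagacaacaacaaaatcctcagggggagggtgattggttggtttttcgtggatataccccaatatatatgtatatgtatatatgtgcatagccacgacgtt
grn intron, chr3R:8180753-8180952: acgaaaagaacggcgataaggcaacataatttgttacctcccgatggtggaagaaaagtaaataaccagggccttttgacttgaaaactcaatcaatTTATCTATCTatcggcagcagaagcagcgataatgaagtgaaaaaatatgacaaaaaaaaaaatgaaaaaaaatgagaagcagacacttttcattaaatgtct
GATAe intron, chr3R:16010083-16010282: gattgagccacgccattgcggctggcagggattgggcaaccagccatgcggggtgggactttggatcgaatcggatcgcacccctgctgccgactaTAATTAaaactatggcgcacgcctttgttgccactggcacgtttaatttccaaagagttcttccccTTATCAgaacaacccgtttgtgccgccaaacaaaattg
pnr start, chr3R:16025880-16026079: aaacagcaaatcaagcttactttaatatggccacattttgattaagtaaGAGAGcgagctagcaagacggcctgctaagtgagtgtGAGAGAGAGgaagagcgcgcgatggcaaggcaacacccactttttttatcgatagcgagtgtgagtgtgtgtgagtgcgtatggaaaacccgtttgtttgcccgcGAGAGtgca
The strongest window at ush holds none of the marked words. The window 44.6 kb into ush has TGATAA across its summit, with the first base 2 bp before it. The window in grn has AGATAA and AGATAG overlapping each other on the minus strand. Its AGATAA covers the summit and begins, by plus strand position, 3 bp before it. The window at the start of pnr holds GAGAG 5 times and none of the 4 GATA words. GAGAG was in 23.9% of all listed windows and 23.1% of all ranked windows on the arms.

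Each peak has a signal, the authors' value from their peak caller, and an IDR, the irreproducible discovery rate, which falls as a peak is ordered alike in the rankings compared. An IDR of 0.01 is a −log10 IDR of 2, and the scale ends at 5. The lists used here hold peaks at or below that limit. The larger list from both libraries had 1500 peaks, the conservative list 966, the list of replicate 1 had 881 and the list of replicate 2 had 927. A peak in the larger list is called listed. Depth per library is not known from these files, signal belongs to its own list, and all values are the authors'.

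The listed Lim3 peaks among these genes lay mostly at the cofactor gene. The larger list held 8 peaks at the 6 genes, of which 7 lay in introns of ush and 1 in an intron of grn. For pnr, srp, GATAd and GATAe it held 0. The members with a listed peak were thus 2 of 6, and 20.0% of all protein-coding genes had 1 or more. At ush 7 of 116 ranked peaks were listed (6.03%), at grn 1 of 58 (1.72%), and over all ranked peaks 1.05% were listed. The share at ush was part of what chose the gene, and the share at grn rests on 1 peak.

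Ranked peaks, most of them weak, were found at each of the genes but GATAd, which had 0. The extended span of ush held 15.6 ranked peaks per 10 kb over 74.3 kb, that of grn 13.2 over 44.1 kb and that of GATAe 12.5 over 20.0 kb. The span of srp held 11.8 per 10 kb over 27.9 kb and that of pnr 9.33 over 25.7 kb, against 10.1 per 10 kb over the arms. The median signal was 19.1 at ush, 24.1 at GATAe, 22.5 at srp, 18.5 at grn and 17.9 at pnr, against 18.0 over all ranked peaks. The spans of srp, GATAe and pnr overlap once extended, so 10 peaks were counted for 2 of these genes.

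The gene ush lies on chromosome 2L from 476220 to 540560 on the plus strand, with 4 annotated starts. Its 7 listed peaks fell into 2 stretches of the long introns. In the upstream stretch, the peak at 484281 to 484610 had a signal of 66.6 and the peak at 485712 to 486041 a signal of 71.9, at rank 1424 and rank 1223. In the downstream stretch, the peak at 512063 to 512392 had a signal of 75.9, at rank 1104, and the peak at 516020 to 516349 had 86.1, at rank 874. The strongest listed peak of ush, at 520692 to 521021, had a signal of 108, at rank 579, and lay 2609 bp upstream of the nearest start of ush. It was followed by a pair of overlapping peaks at 521949 to 522278, with a signal of 79.3, and 522149 to 522478, with a signal of 15.6. Those peaks lay 1352 bp and 1152 bp upstream of the same start, which begins an internal transcript of the gene. The weaker of the pair was only at rank 83042 by signal, yet had the same −log10 IDR of 2.44 as its neighbour. Both were matched to 1 and the same peak in each replicate.

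The −log10 IDR of the listed ush peaks ran from 2.24 to 3.17. The ranked peak of ush nearest the limit from the other side, at 498058 to 498387 in the gene, had a signal of 51.1 and a −log10 IDR of 1.95. Just inside the limit stood the unlisted peak at 471169, with 2.23, and the listed peaks at 485712, with 2.24, and 484281, with 2.25.

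The strongest peak of all 6 genes was not a listed one. It lay in the first intron of ush, at 480959 to 481239 on 2L, 4879 bp from the first start of ush and 1411 bp upstream of cbt. The gene cbt encodes a zinc finger transcription factor and is nested in that intron on the minus strand. The peak had a signal of 908 in the ranking of both libraries, at rank 2 of 142438, and its −log10 IDR was at the end of the scale, 5. It had a signal of 498 at rank 4 in replicate 1 and 435 at rank 2 in replicate 2, and it was at rank 2 in the ranking behind the conservative list. None of the 4 thresholded lists used here held it.

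In all, 13 ranked peaks of ush had an IDR of 0.01 or less (11.2% of its ranked peaks, against 1.14% of all ranked peaks), and 6 of them were not in the larger list. Those 6 followed each other from 471169 to 482305, a run of 11.1 kb with 0 listed peaks inside it. The run began in CG4297, crossed MED15, which encodes a subunit of the Mediator complex, and cbt, and ended in the first intron of ush. At the upstream end, the peaks at 471169 and 472286, with signals of 78.3 and 99.7, lay within 500 bp of the start of CG4297, 4886 bp and 3769 bp upstream of ush. The peak at 479915 to 480244, with a signal of 152 at rank 299, lay 392 bp upstream of cbt. The peaks at 481758 and 481976, with signals of 69.7 and 18.3, overlapped each other in the ush intron. A listed peak with a signal of 61.8, at 470574 to 470903, stood just upstream of the run and the listed peak at 484281 just downstream. The extended spans of cbt and MED15 overlap that of ush, and 5 and 4 of the same peaks were counted for them.

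Over the whole ranking, 124 peaks with an IDR of 0.01 or less were not in the larger list, of which 65 lay on the arms and 59 on scaffolds. No source used here gives the reason. A control library or a map of regions with high background was not analysed here, so whether the signal of these peaks depends on Lim3-eGFP was not tested.

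**Figure D1:**
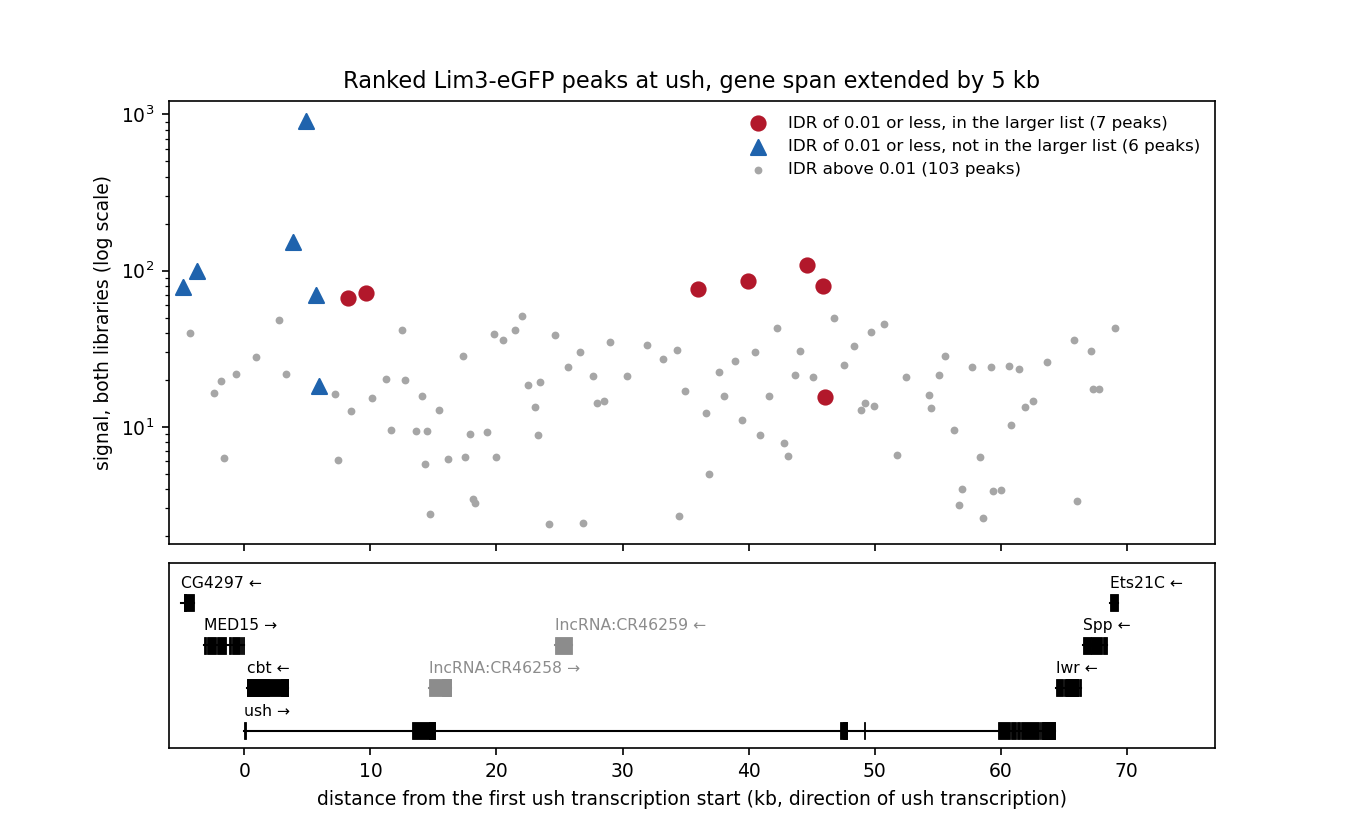
Signal of the 116 ranked peaks at ush (log scale, both libraries) against the distance of the summit from the first start of ush in kb, with the genes of the region below (boxes are exons, arrows the strand, genes cut at the ends of the extended span). The 6 blue triangles, with an IDR of 0.01 or less but not in the larger list, all lie at the 5′ end and include the strongest peak, and the 7 red circles lie further into the gene.

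Counted per gene over the extended spans, ush had more peaks at or below the IDR limit than any other of the 13968 protein-coding genes. It had 13, against 10 for the next gene, sbb, whose product is a zinc finger protein. The 13 included the peaks at 471169 and 472286, which lay outside ush near the start of CG4297. They also included the weak peaks at 481976 and 522149, each matched to the same replicate peaks as its stronger neighbour. Listed peaks within the gene itself were 9 at sbb and 7 at ush. By listed peaks alone ush was not first. The gene sbb had 10, and CG10561, CG1677, CHES-1-like, Lim3 itself and kirre had 8 each. With 7, ush stood level with Ddc and amd, enzyme genes beside Lim3 whose extended spans share listed peaks with that of CG10561. The extended span of Lim3 overlaps those of amd, CG10561 and Ddc, so their counts cannot be taken as separate loci. Only 3 of the 8 peaks of Lim3 and 1 of the 8 of CG10561 lay in the gene itself. These counts were not adjusted for length, and ush is a long gene of 64.3 kb. Of the genes with more listed peaks, sbb at 79.1 kb, CG1677 at 125 kb and kirre at 394 kb are longer. CHES-1-like at 27.0 kb, Lim3 at 29.2 kb and CG10561 at 2.17 kb are shorter, as are amd at 3.96 kb and Ddc at 3.82 kb, which had as many as ush.

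**Figure D2:**
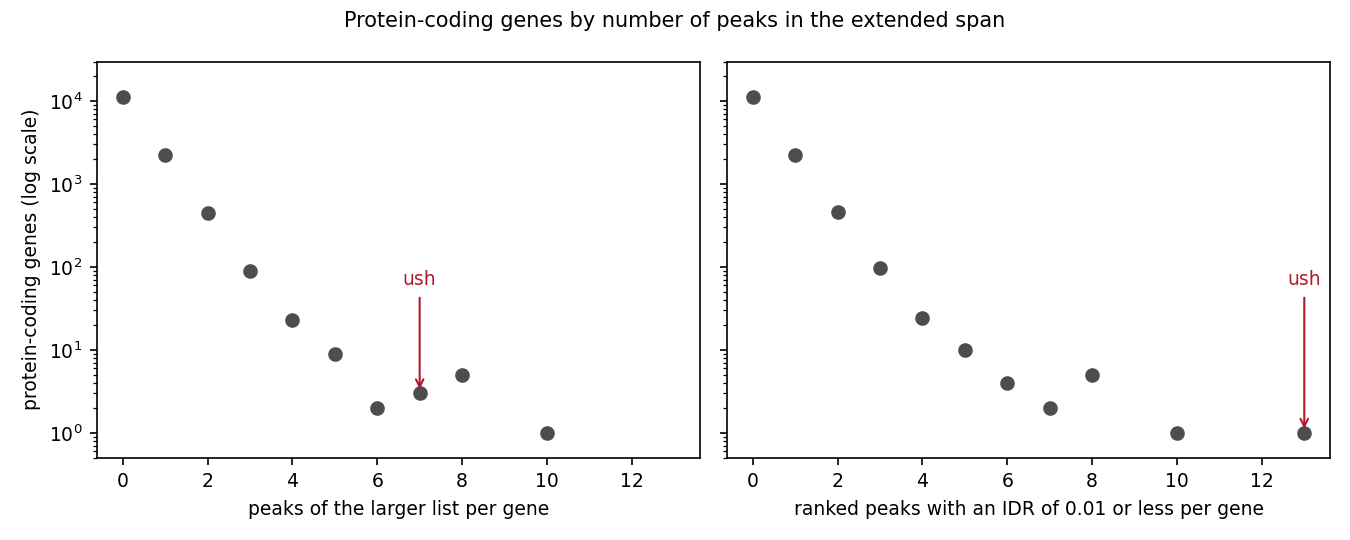
Number of protein-coding genes (log scale) by the number of peaks in the extended span, for the larger list on the left and for all ranked peaks at or below the IDR limit of 0.01 on the right. The arrow marks ush, which is among 3 genes with 7 listed peaks and is the single gene with 13 peaks at or below the limit.

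The replicates did not list the same ush peaks. The list of replicate 1 held 2 peaks of ush, at 512063 and 520692, and the list of replicate 2 held 2 others, at 485712 and 516020. None of the 7 peaks overlapped a peak in the lists of both. The peak at 512063 had a signal of 50.9 at rank 752 in replicate 1 and 25.5 at rank 6700 in replicate 2. The peak at 516020 had 34.5 at rank 1558 in replicate 1 and 61.1 at rank 518 in replicate 2. The peak at 520692 was high in both, with 58.7 at rank 577 in replicate 1 and 42.9 at rank 1077 in replicate 2. The peak at 485712 had no ranked peak in replicate 1 and a signal of 67.9 at rank 411 in replicate 2. The conservative list held 4 of the 7, those at 516020, 520692, 521949 and 522149.

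Among the unlisted peaks of the run, the peak at 479915 was at rank 317 in replicate 1 and rank 400 in replicate 2, while the peak at 472286 was at rank 1805 in replicate 1 and rank 454 in replicate 2. The peak at 471169 was at rank 964 in replicate 1 and rank 2166 in replicate 2, and the overlapping peaks at 481758 and 481976 were both matched to rank 1572 in replicate 1 and rank 1844 in replicate 2. In the rankings of single replicates, replicate 1 had 4 ush peaks at or below the limit, of which 2 were in its list, and replicate 2 had 5, of which 2 were in its list. The peaks that the replicates' lists lacked again lay in the 11.1 kb run.

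Over the ranked peaks with a value in both libraries, the Spearman correlation of signal was 0.61 at ush (71 peaks), 0.053 at srp (23), 0.04 at grn (37), −0.006 at GATAe (20) and −0.268 at pnr (14), against 0.176 over 67586 ranked peaks. At ush it was 0.355 over the 59 peaks above the limit and 0.38 over the 12 at or below it. A split by IDR narrows the range of signals in each set, so it does not show what the value of 0.61 rests on. Overlapping peaks can share 1 peak of a replicate, all peaks share the same 2 libraries, and the IDR itself uses the order of the signals. The correlations are therefore a description.

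**Figure D3:**
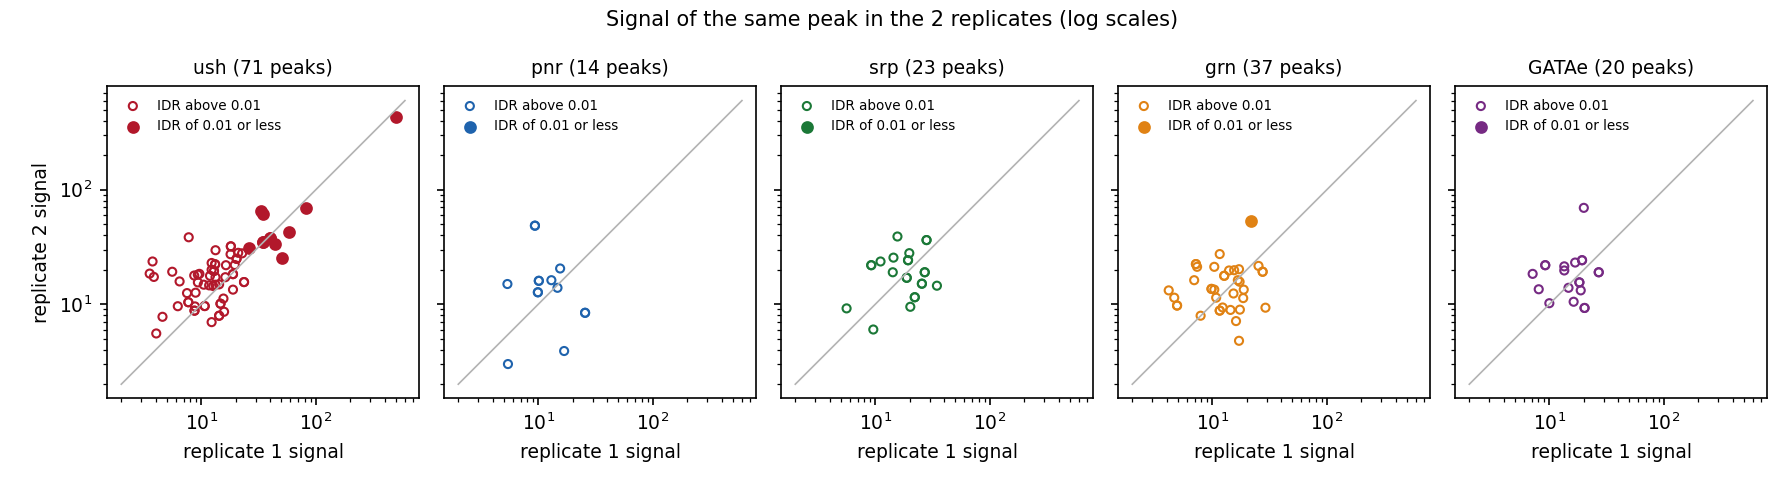
Signal of each ranked peak in replicate 2 against replicate 1 (log scales), by gene, with filled points for an IDR of 0.01 or less in the ranking of both libraries and a grey line of equal values. At ush the filled points run up to 498 and 435, while at pnr, srp, grn and GATAe the points form a cloud with 1 filled point, at grn.

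The gene grn, on chromosome 3R from 8147368 to 8181444 on the minus strand, was the single GATA factor with a listed peak. That peak, at 8180688 to 8181017, lay in an intron 591 bp downstream of the start. It had a signal of 73.9 at rank 1157 and a −log10 IDR of 2.54. Its signal was 21.8 at rank 9130 in replicate 1 and 53.7 at rank 668 in replicate 2. It met a listed peak of replicate 2, but none of replicate 1 or of the conservative list. The next peaks of grn were weaker, with a signal of 42.9 at 8172365, in an intron, and 42.8 at 8183595, which lay 2316 bp upstream of the gene.

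The genes srp, GATAe and pnr follow each other on 3R and are read in the same direction. They span 15986152 to 16004085, 16009105 to 16019133 and 16026079 to 16041796. None of their ranked peaks reached the limit in the ranking of both libraries. In replicate 1, too, none did. In replicate 2, 1 peak did at GATAe and 1 at pnr, and both were in its list. Counting lists of single replicates, 1 of the 6 genes had a peak in the list of replicate 1 (12.4% of protein-coding genes did) and 4 of 6, ush, pnr, grn and GATAe, in that of replicate 2 (13.7% of protein-coding genes did). Of the 246 ranked peaks, those that overlapped the list of replicate 1 were 2, both at ush, against 0.655% of all ranked peaks. Those that overlapped the list of replicate 2 were 2 each at ush and pnr and 1 each at grn and GATAe, against 0.666%. The 2 at pnr overlapped the same peak of that list.

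At GATAe, the peak at 16010018 to 16010347 lay in an intron 1078 bp from the start. It had a signal of 71.6 at rank 1237 in the ranking of both libraries, close to that of the listed grn peak, but a −log10 IDR of 0.13. In replicate 1 its signal was 20.0 at rank 12815, and in replicate 2 it was 69.4 at rank 393, with a −log10 IDR of 3.32. At pnr, the peak at 16025815 to 16026144 had its summit 99 bp upstream of the start. It had a signal of 46.4 at rank 4208 from both libraries and a −log10 IDR of 1.18. Its signal was 9.34 at rank 66174 in replicate 1 and 48.5 at rank 810 in replicate 2. Both sites were thus listed in replicate 2 and not in replicate 1.

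At srp, no library listed a peak. The highest signal of its extended span, 59.5 at rank 1815, belonged to a peak in coding sequence of the neighbour Hel89B, at 15982603 to 15982932, 3384 bp upstream of srp, with a −log10 IDR of 1.5. It was at rank 28385 in replicate 1 and rank 1367 in replicate 2. Within srp itself, the highest was 50.8 at rank 2939, in coding sequence at 15995042 to 15995371. In the extended spans, 5 of the 33 ranked peaks of srp (15.2%) and 4 of the 25 of GATAe (16.0%) were among the strongest 5000 by signal. So were 15 of 116 at ush (12.9%), 1 of 24 at pnr (4.17%) and 1 of 58 at grn (1.72%). Over all ranked peaks the share is 3.51%. The 5 of srp included the peak in Hel89B and the peaks at 16005324 and 16008074. Those at 16005324 and 16008074 lay outside srp, nearer to GATAe, and enter the shares of both genes.

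**Figure D4:**
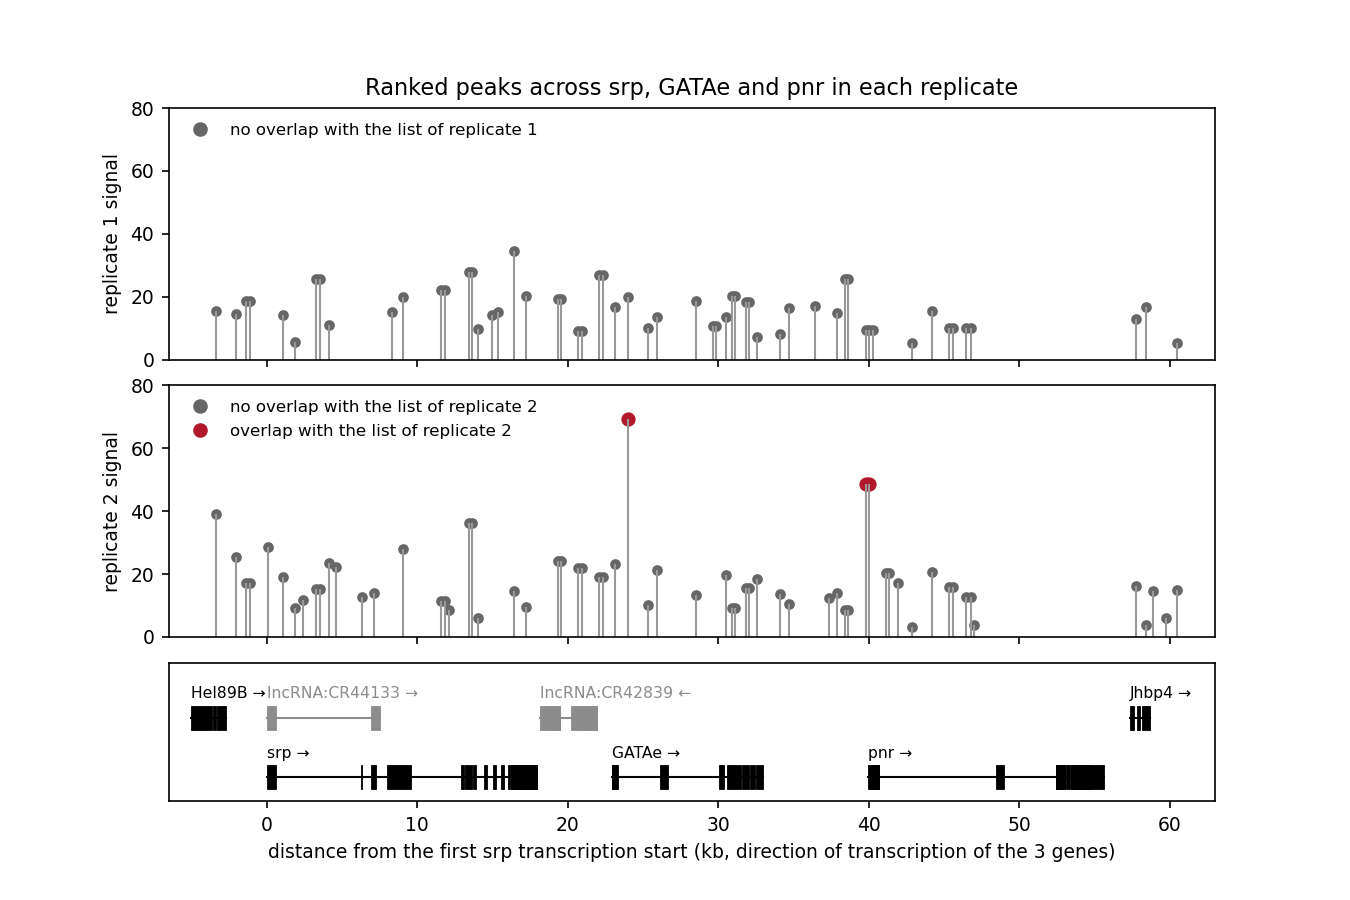
Signal in replicate 1 (top) and replicate 2 (middle) of the ranked peaks across srp, GATAe and pnr, against the distance of the summit from the first start of srp in kb, with the genes below (boxes are exons, arrows the strand). Peaks that overlap the list of a replicate are red. Replicate 2 has a site at GATAe with a signal of 69.4 and a site at pnr with 48.5, and replicate 1 has no red point.

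The gene GATAd, on 2L from 10333734 to 10339185, had no ranked peak in its extended span in the rankings of both libraries or of replicate 1. Replicate 2 had 4, the strongest at rank 53339 with a signal of 12.7. The stretch free of ranked peaks around the gene was 41.8 kb for both libraries, 156 kb for replicate 1 and 15.3 kb for replicate 2. A span free of ranked peaks was found for 564 protein-coding genes (4.04%). The 4 peaks of replicate 2 lay inside the gap of the other rankings, upstream of the gene, and the nearest ended 2951 bp before it. Whether reads can be placed at the gene itself was not tested.

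**Figure D5:**
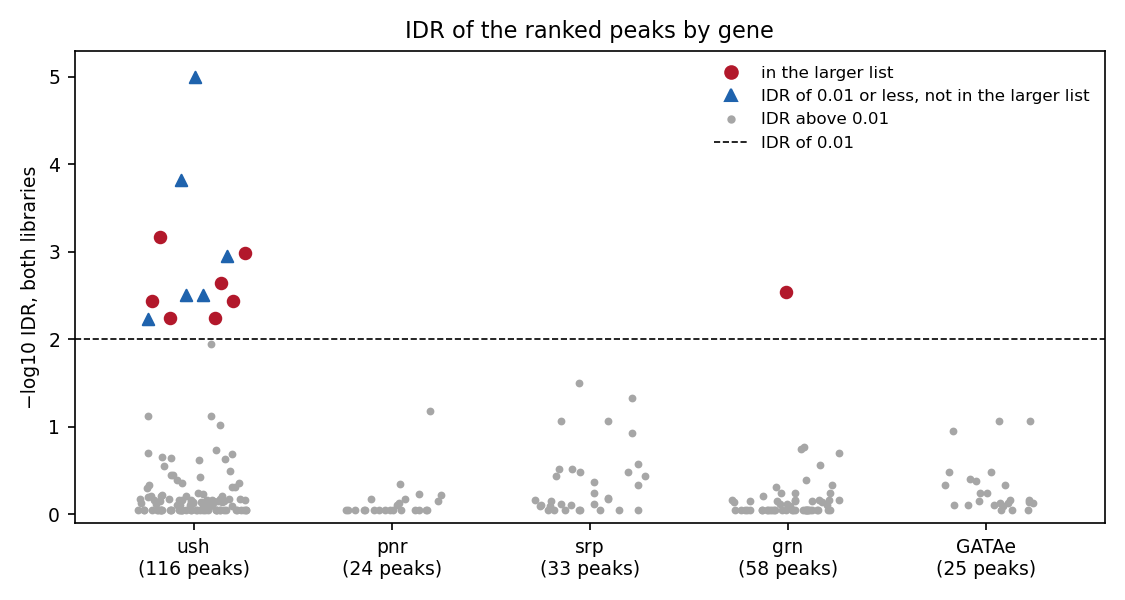
−log10 IDR of each ranked peak from both libraries, by gene, with the limit of 0.01 as a dashed line and points spread sideways for legibility. Above the line lie 13 peaks of ush and 1 of grn. The peaks of srp end at 1.5, those of pnr at 1.18 and those of GATAe at 1.07. GATAd, with 0 ranked peaks, is not shown.

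The windows of 200 bp around the summits were searched for short words, on both strands. Any of the 4 GATA words was in 7 of the 8 listed windows of ush and grn (87.5%, Wilson 95% interval 52.9 to 97.8), against 38.7% of all listed windows on the arms and 24.9% of all ranked ones. The listed window without one was that at 516020. The word TGATAA alone was in 1 of 8 (12.5%, 2.24 to 47.1), against 17.2% of listed and 9.66% of ranked windows. The share of 87.5% thus came mostly from AGATAA, and it depends on the words counted. With the 6 unlisted peaks at or below the limit added, 8 of 14 windows held any of the 4 words (57.1%, 32.6 to 78.6), against 38.3% of all windows at or below the limit. The share also moved with the library. In the list of replicate 1 alone it was 1 of 2 windows at these genes (50%, against 36.5% of that list on the arms), and in the list of replicate 2 alone it was 3 of 5 (60%, against 42.0%). In the conservative list it was 3 of 4 (75.0%, against 36.1%). For the larger list, windows of 100 bp gave 5 of 8 (62.5%, against 23.0%) and windows of 500 bp 8 of 8 (100%, against 64.3%).

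The word TAATTA was in 1 of the 8 listed windows (12.5%, 2.24 to 47.1), that at 522149, against 20.1% of listed and 9.94% of ranked windows. Outside the larger list, the GATAe peak at 16010018, which overlaps the list of replicate 2, held TAATTA besides a TGATAA. The first base of that TAATTA lay 4 bp from the summit in the ranking of both libraries. The median GC content was 39.0% in the 8 windows, 36.0% in all listed windows and 46.5% in all ranked windows, so listed windows as a whole are richer in A and T than ranked ones. Intervals cover counting only, and neighbouring windows of 1 gene are not independent.

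The ranked windows were searched for the same words. TGATAA was in 33 of the 116 ranked windows of ush (28.4%, 21.0 to 37.2), against 9.66% of all ranked windows. It was in 5 of 33 at srp (15.2%), 3 of 24 at pnr (12.5%), 3 of 25 at GATAe (12%) and 5 of 58 at grn (8.62%). By the 4 GATA words, pnr with 45.8% and ush with 45.7% were level, against 24.9% of all ranked windows, and GATAA was in 58.3% of the windows of pnr and 56.0% of those of ush, against 28.0%. The 33 windows of ush held 35 separate copies of the word, none of them counted in more than 1 window. When the extended span of ush was cut into tiles of 200 bp without regard to peaks, 67 of 371 tiles held TGATAA (18.1%). At GATAd 16 of 77 tiles did (20.8%), against 12.1% of all tiles on the arms. Any of the 4 GATA words was in 146 of 371 tiles at ush (39.4%), against 30.1% of all tiles on the arms. The tile share was 31.2% at pnr, 33.1% at srp, 37.0% at GATAe and 41.6% at GATAd, which had no ranked peak. At grn it was just below that of the arms. The sequence at ush was thus richer in these words than the arms without regard to peaks. TAATTA was in 8 of 116 ranked windows of ush (6.90%, 3.54 to 13.0) and in 37 of 371 of its tiles (9.97%), against 9.94% of ranked windows and 12.4% of tiles on the arms. A word in a window is a match of letters, and it does not show that a factor was bound.

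Other genes of the pathway were taken from a list of 38 partners and targets of the GATA factors. Of these, 6 had a listed peak in the extended span (15.8%, against 20.0% of all protein-coding genes). Genes of the heart, mesoderm and dorsal epidermis gave 4 of 11. At tin, the homeobox gene of heart precursors, a peak with a signal of 100 lay 251 bp upstream of the start, and it was in the list of replicate 2 alone. At dpp, the gene of a BMP ligand, an intronic peak with a signal of 99.0 was in the lists of both replicates. Mef2, which encodes a muscle transcription factor, had 4 listed peaks. Those at 9949047 and 9949265 overlap, with signals of 75.2 and 23.4 and the same −log10 IDR of 2.47. The strongest, with a signal of 251, lay at the start of the neighbours Pdrg1 and Pal1. The peak of tup, another LIM-homeodomain gene of heart and motor neurons, likewise lay at the start of a neighbour, CG10602, with a signal of 62.6. It was in the list of neither replicate and not in the conservative list.

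Of the blood cell and fat body genes, 1 of 9 had a listed peak, and that peak, with a signal of 126 at Hml, a gene of plasmatocytes, lay in an intron of the neighbour CG8745. Of the motor neuron targets of Grn, 1 of 4 did. That gene was unc-5, a netrin receptor gene, with a peak 116 bp upstream of a start (signal 67.7) and an intronic one (signal 74.0), neither in the list of a single replicate. The 10 genes of partners and the 4 midgut genes had none. Among the partners were Chi, which encodes a cofactor of LIM-homeodomain proteins and of Pnr and whose strongest ranked peak had a signal of 30.9 at rank 22468, and CtBP, a corepressor gene with 54.8 at rank 2308. As the study has 1 group, none of these counts can be set against embryos that lack Lim3 or a GATA factor.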

How the data were processed

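Lim3-eGFP ChIP-seq was given as peak lists for 2 biological replicates and for both libraries together, in dm6 coordinates per the labels. No source used here gives the aligner or peak caller. The deposited lists hold the authors' signal per peak, a score scaled from the IDR to at most 1000, and, in the ranked lists, the authors' −log10 IDR. Peaks were ranked by signal within each list, and each ranked peak was matched to its strongest overlapping peak in each replicate (1 bp or more). Genes came from Ensembl release 115 and sequence from the NCBI release 6 assembly. Promoters were windows of 500 bp on either side of a transcript start. Summit windows of 200 bp were searched on both strands, with Wilson 95% intervals. The counting and matching steps were checked on simulated data with known answers. Python 3.11.15, numpy 2.4.6, pandas 2.3.3, scipy 1.17.1 and matplotlib 3.10.9 were used.

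The genes, lists and words were chosen with earlier results of these data known, so no test was run. Genes named were the 6 members, those at or beside their peaks, listed partners or targets, and the genes with the most listed peaks. The partners Chi and CtBP were added to these after their values were seen. A separate age label, no plausible embryo age, was not used. Depth per library is unknown.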

Additional observations from a re-analysis of the deposited data

How the results depend on the processing

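The counts rest on which list is read. In the larger list, 7 peaks of ush, 1 of grn and 8 over the 6 genes were counted, at 2 of the genes. In the conservative list these were 4 of ush, 0 of grn and 4 over the 6 genes, at 1 gene, and in the top 50% of the larger list by signal 1 of ush, 0 of grn and 1 over the 6, at 1 gene. With 1 replicate left out, ush had 2 under either choice. The other values over the 2 single lists ran from 0 to 1 for grn, from 0 to 1 for pnr, from 0 to 1 for GATAe, from 2 to 5 over the 6 genes, from 1 to 4 for genes with a peak and from 3 to 4 for the partner and target list, against 6 in the larger list. Counting all ranked peaks at or below the IDR limit, an alternative added after the data were seen, gave 13 at ush and 14 over the 6 genes. Spans with no extension gave 3 partner and target genes with a peak, and spans extended by 10 kb gave 15. The share of listed windows with TGATAA was 12.5%, and it became 100% in the top 50% (1 window), 50% in windows of 500 bp, 75.0% for GATAA and 87.5% for any of the 4 GATA words, and ran from 20.0% to 50% over the single lists. The share with TAATTA was 12.5%, and it became 0.0% in the top 50% and 0.0% in windows of 100 bp, and ran from 0.0% to 20.0% over the single lists. Of the planned values, 80 kept their count within 1.5 times or their share within its interval, and 28 did not. Most of those 80 were counts of 0 that stayed 0, and some settings could not raise them. The count of ush peaks listed in both replicates was 0 in every alternative run. Narrower spans and stricter overlaps could not raise a count of 0, so they were no check on it. No paired analysis was possible because there is 1 group. With 2 replicates and no depths, no error on a signal can be given.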
